A study of Homo sapiens with 3 samples.

Results

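Interferon-stimulated genes were examined in human hepatocellular carcinoma (HCC) cells by mRNA sequencing of 3 cultured cell lines, with 1 library each. The 44 genes were chosen by symbol from the known interferon response, and all 44 were found among the 16149 genes listed in at least 1 library. The study asked which genes differ between a parental HCC line and subclones that spread to different organs in mice. All 3 lines belong to HCCLM3, an established human HCC line, and were grown in DMEM without any interferon or other agent being named. The parent carries the label low metastasis ability, whereas the study's methods name HCCLM3-R, a derivative with red fluorescent protein and a high metastatic potential, as the parental line. Subclone 1 is labelled as more metastatic with specificity for lung, and subclone 2 as able to reach both lung and celiac lymph node. According to the study, cells of lung and lymph node metastases from xenografts in nude mice were first cultured as lines. Its subclones were each grown from a single cell of those lines, so that each is a clone of its own. The sources used here do not say which clones were sequenced.

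Interferons are cytokines, and those of type I and type III are released by cells on sensing viral nucleic acid. Type I and type III interferons bind receptors that activate the kinases JAK1 and TYK2, and the resulting transcription factor complex, which contains STAT2 and IRF9, binds a promoter sequence called the interferon-stimulated response element (ISRE). Type II interferon acts through a different element, the gamma-activated site (GAS). The genes switched on in this way encode sensors of foreign RNA, enzymes that degrade RNA or block translation, proteins that trap viruses at membranes, and factors that sustain or end the response. In hepatocytes they are best known for restraining hepatitis viruses.

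The values deposited were RPKM, the reads of a gene divided by its length and by the reads of the whole library, so that levels of different genes can be compared. The spacing of these values gave the library totals, which were 4488825 reads in the parent, against 4609696 in subclone 1 and 4725150 in subclone 2, and from them the whole number of reads behind each value. The intervals given with RPKM are 95% exact Poisson intervals and those given with folds are 95% exact (Clopper-Pearson) intervals. They cover counting error only, since reads of the same molecule cannot be told apart. With 1 library per line there was no replicate check and no test between lines, and an interval that excludes 1 compares 2 libraries, not 2 conditions. A gene was counted as higher or lower in a subclone where log2 of (RPKM + 0.1) differed by at least 2-fold and its mean RPKM over the 3 libraries was at least 1, a limit that 33 of the 44 genes and 11370 of all genes passed. The log2 ratios below are on this scale, and the folds are plain ratios of RPKM. Liver markers were low in the parent, where albumin (ALB) stood at 2.46 RPKM, and ALB was 49.5 RPKM in subclone 1 and 68.8 RPKM in subclone 2. Of the other liver markers, APOB also rose, at 0.30, 1.23 and 4.17 RPKM in the parent, subclone 1 and subclone 2. AFP rose less, at 2.41, 4.16 and 4.27 RPKM in the same order, with folds of 1.73 (0.999 to 3.06) and 1.77 (1.03 to 3.12). Transthyretin (TTR) had 0, 0 and 1 reads, APOA1 1, 3 and 2 reads and SERPINA1 1, 4 and 1 reads. The folds of APOB are given below.

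Interferon-stimulated genes were present at low to moderate levels in all 3 lines, and slightly more so in both subclones. Reads of the 44 genes made up 0.108% of the parental library (0.105 to 0.111), 0.130% of subclone 1 (0.126 to 0.133) and 0.142% of subclone 2 (0.138 to 0.145). These exact binomial intervals do not overlap between any of the libraries. A share of reads gives more weight to long and abundant genes, however. Most of the rise lay in the 5 PARP and SAMD9 genes, so the intervals do not speak for the whole set. All members together had 4863, 5970 and 6696 reads. Of these, SAMD9 held 396, 700 and 934, PARP14 398, 532 and 595, and SAMD9L 194, 354 and 383, in the same order. The summed level was 435 RPKM in the parent, against 496 in subclone 1 and 530 in subclone 2. IFITM3, OAS1 and OAS3, the most abundant members, held 53.2%, 47.0% and 46.3% of these sums and reached 232, 233 and 245 RPKM together. Without them the sums were 203, 263 and 285 RPKM, so that most of the difference in the sum lay in the less abundant members. Among the 33 genes over the limit, the median level was 5.27 RPKM in the parent, against 7.94 in subclone 1 and 7.77 in subclone 2, while that of all genes over the limit was 10.8, 10.9 and 11.2. Members at or above 10 RPKM numbered 11, 13 and 13, and those under 1 RPKM 14, 9 and 11.

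**Figure D1:**
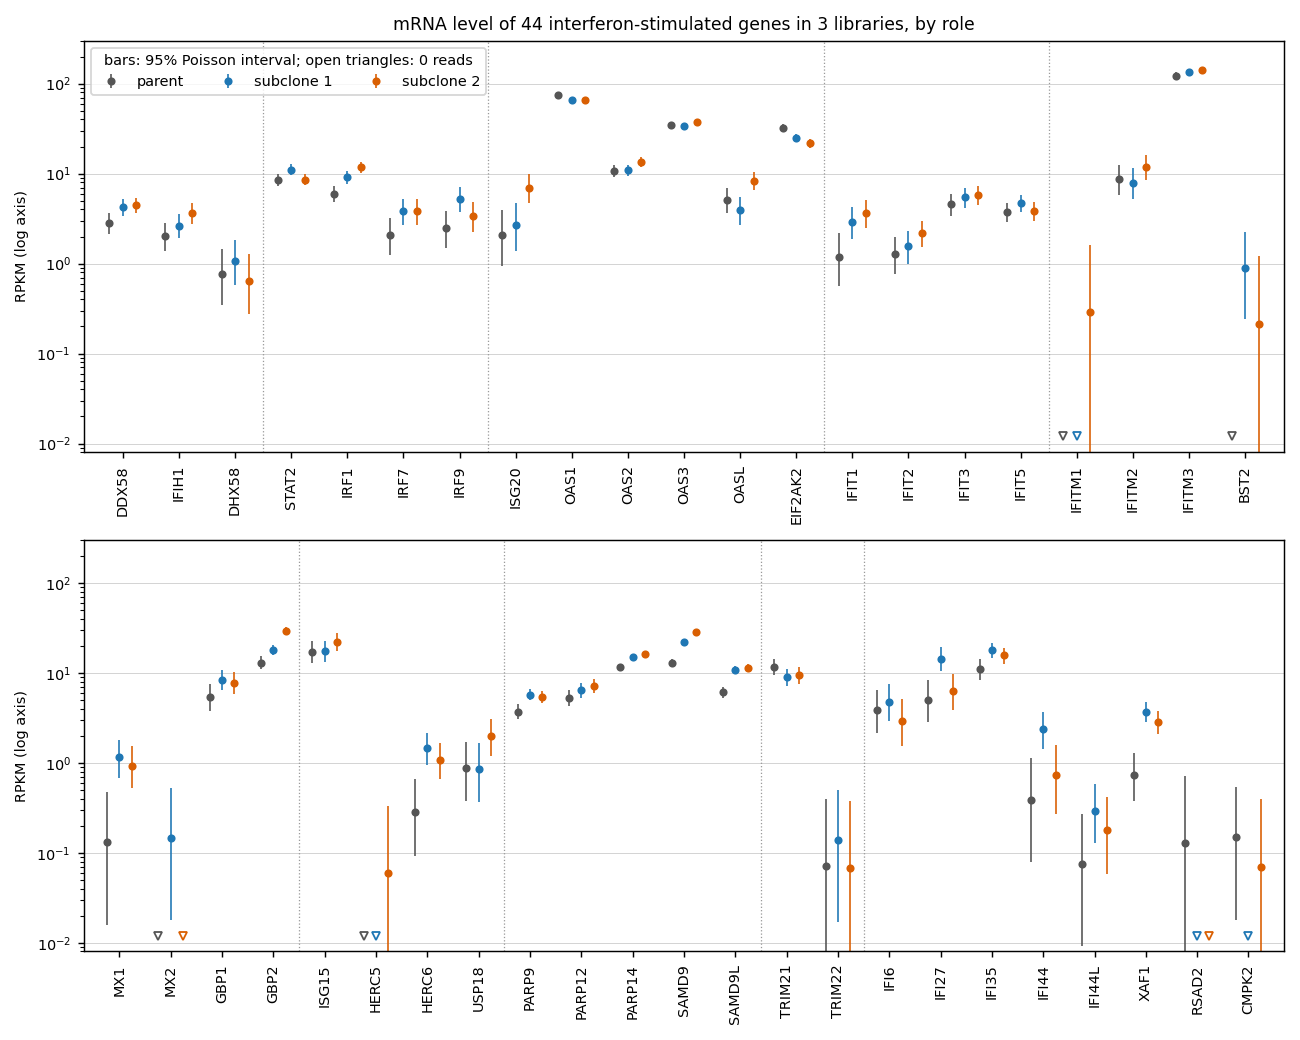
RPKM (log axis) of the 44 interferon-stimulated genes in the parent, subclone 1 and subclone 2, grouped by role, with 95% exact Poisson intervals as bars and open triangles for 0 reads. IFITM3 is highest in all 3 libraries at 122, 134 and 142 RPKM, and genes such as MX2, HERC5 and RSAD2 lie at 0 to 2 reads.

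Against the parent, more members were higher than lower in both subclones. In subclone 1, 5 of the 33 genes over the limit were at least 2-fold higher, namely IRF9, IFI27, IFI44, IFIT1 and XAF1, beside 4.90% of all genes over the limit. In subclone 2, 6 were at least 2-fold higher, namely ISG20, IFIT1, SAMD9, USP18, XAF1 and GBP2, beside 5.33% of all genes. Because the limit is a mean over the 3 libraries, some of these genes passed it only through lines where they are high. IFI44 passed through its 2.37 RPKM in subclone 1 and USP18 through its 1.97 RPKM in subclone 2. XAF1, at 0.735 RPKM in the parent, passed through both subclones. The same limit was applied to all genes. No member was at least 2-fold lower than the parent, beside 1.82% of all genes in subclone 1 and 2.16% in subclone 2. The median log2 ratio of the 33 genes was 0.38 in subclone 1 and 0.51 in subclone 2, and that of all genes over the limit was 0.00 and 0.04. Of the 33, 26 lay above the parent in subclone 1 and 29 in subclone 2, whereas 50.4% and 53.5% of all genes did so. Both comparisons share the parental library, and so a low or high value in it moves both in the same direction.

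The counting interval of the fold gave a finer view than the 2-fold limit. In subclone 1 the interval lay above 1 for 16 of the 33 genes and below 1 for 2, while 20.0% of all genes lay above and 19.0% below. In subclone 2 it lay above 1 for 18 and below 1 for 2, beside 22.9% and 17.9% of all genes. The members had a median of 60.0 reads in the parent and all genes one of 147 reads. Fewer reads make an interval wider and also let a point value pass 2-fold more easily by counting error. The genes 2-fold higher in subclone 1 had 3 to 19 reads in the parent. Those in subclone 2 had 8 to 12, except SAMD9 and GBP2 with 396 and 152. The shares of all genes were not matched for this. MX1 and HERC6, under the limit on level, also had intervals above 1 in both subclones. The 2 genes below 1 were OAS1 and EIF2AK2 in both comparisons.

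**Figure D2:**
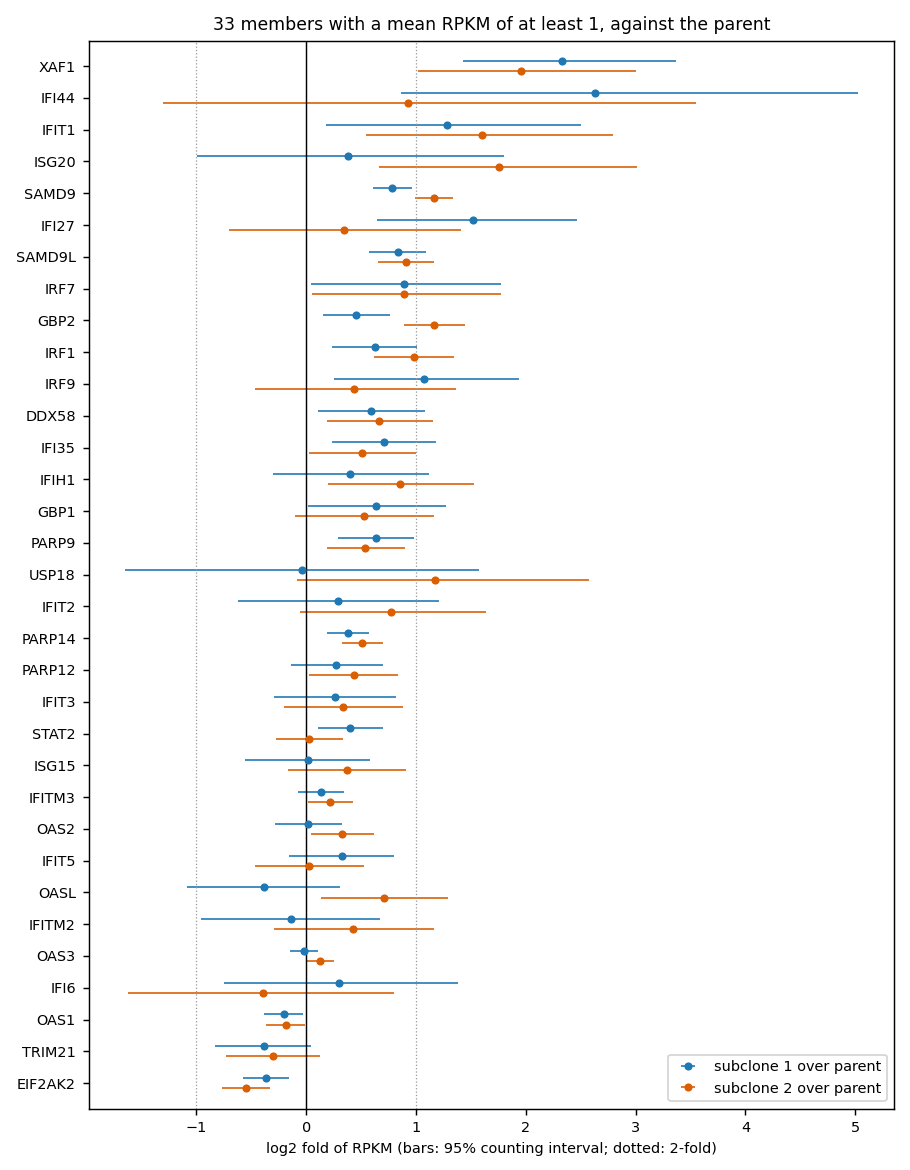
Log2 fold of RPKM over the parent (x axis) for the 33 interferon-stimulated genes over the limit (mean RPKM of 1), in subclone 1 and subclone 2, with 95% counting intervals as bars and dotted lines at 2-fold. The points lie mostly right of 0, XAF1 at the top has both intervals right of 2-fold, and EIF2AK2 at the bottom has both left of 0.

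**Figure D3:**
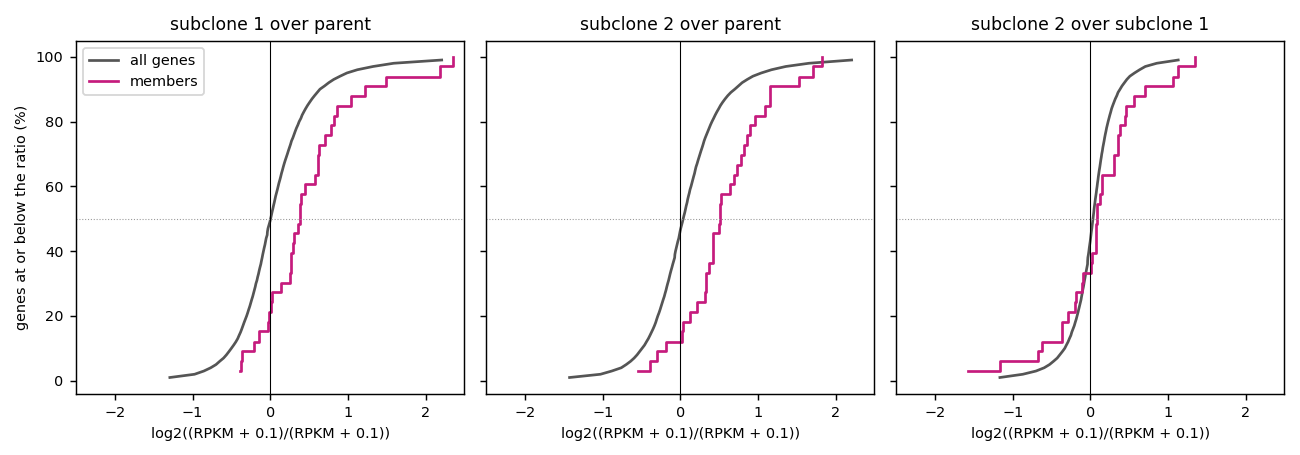
Percent of genes (y axis) at or below each log2((RPKM + 0.1)/(RPKM + 0.1)) (x axis) for all 11370 genes over the limit and for the 33 members, in the 3 comparisons. The members' line lies right of that of all genes against the parent, with medians of 0.38 against 0.00 and 0.51 against 0.04, and close to it between the subclones, at 0.08 against 0.03.

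Promoter sequences were searched for letters like the ISRE and the GAS, and windows are printed for members that differed by at least 2-fold or that show the extremes. A promoter window was found for 34 of the 44 genes in the RefSeq table of GRCh38.p14. An ISRE-like motif, GAAANNGAA on either strand, occurred within 250 bases before the start of 20 of the 34 genes (58.8%), and in 7.06% of the 27305 promoters of all genes and 5.37% of the 9235 promoters of genes over the limit. A GAS-like motif, TTCNNNGAA, which reads the same on both strands, occurred in 8 of 34 (23.5%), 6.78% and 5.51%. Each line gives the 120 bases before the start, 5′ to 3′ along the gene, with matches to either motif in capitals. ISG15 is shown because it holds 3 overlapping ISRE-like matches, IFIT1, IFI27, IFI44 and ISG20 because they hold at least 1 within the printed bases and differed by at least 2-fold (the match of SAMD9, 136 bases before its start, lies outside them), IRF9 for its GAS-like match, and XAF1 and EIF2AK2 because they hold neither motif and lay at the upper and lower ends of the ratios in subclone 2.
ISG15: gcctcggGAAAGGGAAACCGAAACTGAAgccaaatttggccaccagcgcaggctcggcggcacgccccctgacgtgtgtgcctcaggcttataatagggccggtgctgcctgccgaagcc
IFIT1: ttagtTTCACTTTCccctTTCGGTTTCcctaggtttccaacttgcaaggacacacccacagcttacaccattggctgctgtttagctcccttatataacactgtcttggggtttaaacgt
IFI27: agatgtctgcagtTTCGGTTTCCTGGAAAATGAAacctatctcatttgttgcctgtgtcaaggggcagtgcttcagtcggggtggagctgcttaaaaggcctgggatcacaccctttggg
IFI44: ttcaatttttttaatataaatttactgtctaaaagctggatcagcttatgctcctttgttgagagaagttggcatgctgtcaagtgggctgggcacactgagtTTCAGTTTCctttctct
ISG20: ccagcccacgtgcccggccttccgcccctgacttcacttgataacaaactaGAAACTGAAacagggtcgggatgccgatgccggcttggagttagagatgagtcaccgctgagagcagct
IRF9: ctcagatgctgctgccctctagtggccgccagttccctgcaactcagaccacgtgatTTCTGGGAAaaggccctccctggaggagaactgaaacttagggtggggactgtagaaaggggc
XAF1: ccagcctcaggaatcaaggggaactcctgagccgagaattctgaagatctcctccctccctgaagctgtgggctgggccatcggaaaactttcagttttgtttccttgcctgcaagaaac
EIF2AK2: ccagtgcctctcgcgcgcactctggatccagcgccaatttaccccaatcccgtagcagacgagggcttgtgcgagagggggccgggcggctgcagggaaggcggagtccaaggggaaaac
These windows lie at chr1:1013377-1013496 on the plus strand for ISG15, chr10:89392503-89392622 on the plus strand for IFIT1, chr14:94110616-94110735 on the plus strand for IFI27, chr1:78649669-78649788 on the plus strand for IFI44, chr15:88638896-88639015 on the plus strand for ISG20, chr14:24161145-24161264 on the plus strand for IRF9, chr17:6755926-6756045 on the plus strand for XAF1 and chr2:37156981-37157100 on the minus strand for EIF2AK2. In IFI27 the ISRE-like and GAS-like matches overlap, so that the capitals form 1 run. The nearest ISRE-like match lay 17 bases before the start in IFI44, 69 in ISG20, 95 in IFI27, 101 in ISG15 and 102 in IFIT1. A match is a description of the letters and not of binding, and 250 bases do not cover elements farther away or within the first exon. Of the 16 genes with a window and an interval above 1 in subclone 1, 6 held the ISRE-like motif, as did 12 of the 14 whose interval held 1 and 0 of the 2 below 1. In subclone 2 the numbers were 8 of 16, 12 of 16 and 0 of 2. By these counts an ISRE-like match in this window was not more frequent among the genes with an interval above 1 in either subclone. The counts include members under the limit on level, however. BST2, IFI44L and RSAD2 hold the motif, but with 0 to 8 reads their intervals could hardly exclude 1. No conclusion is therefore drawn from these counts.

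Among the transcription factors, all 4 were higher in subclone 1 than in the parent with intervals above 1. STAT2, a component of the complex that binds the ISRE, stood at 8.42 RPKM (173 reads) in the parent, 11.1 (235 reads) in subclone 1 and 8.60 (186 reads) in subclone 2. Its fold was 1.32 (1.08 to 1.62) in subclone 1 and 1.02 (0.826 to 1.26) in subclone 2. IRF9, its DNA-binding partner, was 2.49 RPKM in the parent (19 reads, 1.5 to 3.89), 5.24 in subclone 1 (41 reads, 3.76 to 7.10) and 3.36 in subclone 2 (27 reads, 2.22 to 4.89). For IRF9 this was 2.10-fold (1.19 to 3.83) in subclone 1 and 1.35-fold (0.723 to 2.57) in subclone 2, with a GAS-like and no ISRE-like match in its window. Every 50-base window of the IRF9 transcript also occurs in an annotated read-through transcript, AL136295.5, so its RPKM is uncertain. Both components had their highest point value in subclone 1.

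IRF1, a factor induced by type II interferon, was ordered differently, at 5.93 RPKM (95 reads) in the parent, 9.12 (150 reads) in subclone 1 and 11.7 (197 reads) in subclone 2. It was higher than the parent by 1.54-fold (1.18 to 2.01) and 1.97-fold (1.53 to 2.54), just under the 2-fold limit in subclone 2. IRF7, which amplifies interferon production, was 2.06 RPKM (19 reads), 3.81 (36 reads) and 3.82 (37 reads), or 1.85-fold in each subclone with intervals of 1.03 to 3.41 and 1.04 to 3.41. The summed level of the 4 factors was 18.9 RPKM in the parent, against 29.3 in subclone 1 and 27.5 in subclone 2.

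The cytoplasmic sensors of viral RNA were low in all lines, and of the 2 over the limit, 1 had an interval above 1 in subclone 1 and both in subclone 2. DDX58, the sensor RIG-I, was 2.81 RPKM (60 reads) in the parent, 4.24 (93 reads) in subclone 1 and 4.45 (100 reads) in subclone 2, a fold of 1.51 (1.08 to 2.12) and 1.58 (1.14 to 2.22). IFIH1, the sensor MDA5, was 2.01 RPKM (31 reads), 2.65 (42 reads) and 3.64 (59 reads), and its interval lay above 1 in subclone 2 only, at 1.81-fold (1.15 to 2.89), against 1.32-fold (0.810 to 2.17) in subclone 1. The fold of IFIH1 between the subclones was 1.37 (0.907 to 2.09), so the subclones could not be told apart at this depth. DHX58, a regulator of both sensors, was under the limit with 9, 13 and 8 reads.

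The enzymes that act on viral RNA or on translation held the highest levels after IFITM3, and 2 of them lay below the parent in both subclones. OAS1, which makes the 2-5A messenger that activates RNase L, was 75.1 RPKM in the parent (564 reads, 69.0 to 81.6), 65.1 in subclone 1 (502 reads, 59.5 to 71.0) and 65.9 in subclone 2 (521 reads, 60.4 to 71.8). It was lower in both subclones, at 0.867 (0.767 to 0.979) and 0.878 (0.778 to 0.990) of the parent. EIF2AK2, the kinase PKR that stops translation on binding double-stranded RNA, was 32.0 RPKM in the parent (421 reads, 29.0 to 35.2), 24.9 in subclone 1 (336 reads, 22.3 to 27.7) and 21.9 in subclone 2 (303 reads, 19.5 to 24.5). Its level was 0.777 (0.671 to 0.899) and 0.684 (0.588 to 0.794) of the parent, which placed its log2 ratio of -0.55 in subclone 2 at the 8.31 percentile of all genes. The level intervals of EIF2AK2 in the subclones lay below that in the parent. Division by GAPDH instead of the library total left 1 of these 2 genes with an interval below 1 in subclone 2.

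The related synthetases OAS2 and OAS3 were close to the parent in subclone 1. OAS2 was 10.8 RPKM (176 reads, 9.22 to 12.5), 10.9 (183 reads, 9.37 to 12.6) and 13.5 (232 reads, 11.8 to 15.3), or 1.01-fold (0.819 to 1.25) and 1.25-fold (1.03 to 1.53). OAS3 was 34.6 RPKM (1032 reads, 32.5 to 36.8), 34.1 (1046 reads, 32.1 to 36.3) and 37.8 (1187 reads, 35.7 to 40.0), and reached 0.987 (0.905 to 1.08) and 1.09 (1.00 to 1.19) of the parent. OAS1, OAS3 and OAS2 lie next to each other on chromosome 12, and their ratios in subclone 2 ran from below to above 1. OASL, a synthetase-like protein without that enzyme activity, was 5.12 RPKM in the parent (42 reads, 3.69 to 6.93), 3.92 in subclone 1 (33 reads, 2.70 to 5.51) and 8.34 in subclone 2 (72 reads, 6.53 to 10.5). Its fold over the parent was 0.765 (0.470 to 1.24) in subclone 1 and 1.63 (1.10 to 2.44) in subclone 2.

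ISG20, an exonuclease that degrades viral RNA, had an interval above 1 in subclone 2 and one that held 1 in subclone 1. It was 2.06 RPKM in the parent (9 reads, 0.941 to 3.91), 2.67 in subclone 1 (12 reads, 1.38 to 4.67) and 6.95 in subclone 2 (32 reads, 4.76 to 9.82). This was 1.30-fold (0.502 to 3.49) in subclone 1 and 3.38-fold (1.58 to 8.05) in subclone 2, the 98.1 percentile of all genes. The length behind its RPKM matched a transcript only when doubled, as for GBP1 and RSAD2, so the reads of these 3 genes may be understated and their intervals too wide, while the ratios are not affected. The ISG20 window holds its ISRE-like match 69 bases before the start.

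The IFIT genes, which bind foreign RNA and hinder its translation, form a cluster on chromosome 10, and all 4 were above the parent in both subclones by point value. IFIT1, which recognises incompletely capped RNA, was 1.19 RPKM in the parent (10 reads, 0.569 to 2.18), 2.89 in subclone 1 (25 reads, 1.87 to 4.27) and 3.61 in subclone 2 (32 reads, 2.47 to 5.10). It was 2.43-fold (1.13 to 5.68) and 3.04-fold (1.46 to 6.93) over the parent and alone of the family had an interval above 1. IFIT2 stood at 1.27, 1.55 and 2.17 RPKM (20, 25 and 36 reads), with folds of 1.22 (0.649 to 2.31) and 1.71 (0.964 to 3.12). IFIT3 had 52, 64 and 69 reads and folds of 1.20 (0.818 to 1.76) and 1.26 (0.867 to 1.84). IFIT5 had 68, 87 and 73 reads and folds of 1.25 (0.897 to 1.74) and 1.02 (0.723 to 1.44). Neighbours in this cluster thus ran from no detectable difference to a 3.04-fold difference, at low read numbers.

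Proteins that restrict viruses at membranes included the most abundant member. IFITM3, which blocks fusion of viruses in endosomes, was 122 RPKM in the parent (371 reads, 110 to 135), 134 in subclone 1 (418 reads, 121 to 147) and 142 in subclone 2 (454 reads, 129 to 155), at the 96.6, 97.0 and 97.2 percentile of genes in the library. Its folds were 1.10 (0.952 to 1.27) and 1.16 (1.01 to 1.34). IFITM2 had 29, 27 and 41 reads with folds of 0.907 (0.516 to 1.59) and 1.34 (0.815 to 2.24). IFITM1, which acts at the cell surface, was listed with 0, 0 and 1 read, where 0 reads allow up to 0.912 RPKM in the parent and 0.888 in subclone 1. These 3 neighbours on chromosome 11 share 15.7% to 50.1% of their 50-base windows with other genes, mainly each other, so the split of reads between them is uncertain. BST2, the tether that holds budding virions, had 0, 4 and 1 reads, and 0 reads in the parent allow up to 0.680 RPKM.

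The interferon-induced GTPases differed in level. GBP2, a guanylate-binding protein of the type II response, was 13.0 RPKM in the parent (152 reads, 11.1 to 15.3), 17.9 in subclone 1 (214 reads, 15.6 to 20.5) and 29.2 in subclone 2 (358 reads, 26.3 to 32.4). Its folds of 1.37 (1.11 to 1.70) and 2.24 (1.85 to 2.72) ordered the lines without overlap of the level intervals. GBP1, its neighbour on chromosome 1, was 5.41 RPKM (37 reads), 8.39 (59 reads) and 7.77 (56 reads), with folds of 1.55 (1.01 to 2.41) and 1.44 (0.933 to 2.24), and shares 13.3% of its windows with other genes such as the pseudogene GBP1P1. MX1, a dynamin-like antiviral protein and a standard marker of the type I response, had 2 reads in the parent, against 18 in subclone 1 and 15 in subclone 2, or 0.131, 1.15 and 0.931 RPKM. The ratios of MX1 were 8.76 (2.10 to 77.9) and 7.12 (1.66 to 64.2), with lower bounds that rest on 2 parental reads. MX2 had 0, 2 and 0 reads, and 0 reads allow up to 0.226 RPKM in the parent and 0.214 in subclone 2.

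ISG15 is a ubiquitin-like protein that is joined to other proteins by enzymes such as HERC5 and removed by USP18. Its level was 17.2 RPKM in the parent (53 reads, 12.9 to 22.5), 17.4 in subclone 1 (55 reads, 13.1 to 22.7) and 22.2 in subclone 2 (72 reads, 17.4 to 28.0). The folds of 1.01 (0.680 to 1.5) and 1.29 (0.893 to 1.88) held 1, and the ISG15 window carries 3 ISRE-like matches. USP18, which also dampens interferon receptor signalling, was 0.875 RPKM in the parent (8 reads, 0.378 to 1.72), 0.852 in subclone 1 (8 reads, 0.368 to 1.68) and 1.97 in subclone 2 (19 reads, 1.19 to 3.08). It counted as 2-fold higher in subclone 2, yet the fold of 2.26 had an interval of 0.943 to 5.96, and 23.4% of its windows also occur in other genes, mainly USP41. HERC5 had 0, 0 and 1 read, against limits of 0.190 and 0.185 RPKM in the parent and subclone 1. HERC6, its neighbour on chromosome 4, had 5, 26 and 20 reads and ratios of 5.06 (1.91 to 16.9) and 3.80 (1.38 to 13.0).

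The ADP-ribosyltransferases and the SAMD9 pair were all above the parent by point value in both subclones, most with enough reads for narrow intervals. SAMD9, a growth-restraining antiviral factor, was 12.9 RPKM in the parent (396 reads, 11.6 to 14.2), 22.2 in subclone 1 (700 reads, 20.5 to 23.9) and 28.8 in subclone 2 (934 reads, 27.0 to 30.7). Its folds were 1.72 (1.52 to 1.95) and 2.24 (1.99 to 2.53), and the 3 level intervals do not overlap. SAMD9L, its paralogue and neighbour on chromosome 7, was 6.06 RPKM (194 reads), 10.8 (354 reads) and 11.4 (383 reads), with folds of 1.78 (1.49 to 2.13) and 1.88 (1.57 to 2.24). PARP14 was 11.5 RPKM (398 reads, 10.4 to 12.7), 15.0 (532 reads, 13.7 to 16.3) and 16.3 (595 reads, 15.0 to 17.7), or 1.30-fold (1.14 to 1.49) and 1.42-fold (1.25 to 1.62). PARP9, which lies near PARP14 on chromosome 3, had 113, 180 and 173 reads and folds of 1.55 (1.22 to 1.98) and 1.45 (1.14 to 1.86). PARP12 had 90, 112 and 128 reads and folds of 1.21 (0.910 to 1.62) and 1.35 (1.02 to 1.79). All 5 genes had an interval above 1 in subclone 2 and 4 of 5 in subclone 1, and their summed level was 39.4, 60.0 and 69.0 RPKM.

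Of the TRIM proteins, TRIM21, a cytosolic antibody receptor, was 11.7 RPKM (102 reads) in the parent, 8.92 (80 reads) in subclone 1 and 9.46 (87 reads) in subclone 2. With folds of 0.764 (0.563 to 1.03) and 0.810 (0.602 to 1.09) it was not distinguishable from the parent. TRIM22 had 1, 2 and 1 reads.

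The remaining effectors included the largest folds against the parent among genes over the limit, XAF1 and IFI44. XAF1, a proapoptotic partner of the inhibitor of apoptosis XIAP, was 0.735 RPKM in the parent (12 reads, 0.380 to 1.28), 3.70 in subclone 1 (62 reads, 2.83 to 4.74) and 2.85 in subclone 2 (49 reads, 2.11 to 3.77). Both subclones lay clear of the parent, at 5.03-fold (2.69 to 10.3) and 3.88-fold (2.03 to 8.01), the 99.0 and 98.3 percentile of all genes. IFI44 was 0.384 RPKM in the parent (3 reads, 0.0791 to 1.12), 2.37 in subclone 1 (19 reads, 1.42 to 3.69) and 0.729 in subclone 2 (6 reads, 0.268 to 1.59). The ratio of IFI44 was 6.17 (1.82 to 32.5) in subclone 1 and 1.90 (0.406 to 11.7) in subclone 2. IFI27, a mitochondrial and nuclear protein often used to score interferon exposure, was 5.03 RPKM in the parent (15 reads, 2.81 to 8.29), 14.4 in subclone 1 (44 reads, 10.4 to 19.3) and 6.36 in subclone 2 (20 reads, 3.89 to 9.83). For IFI27 the folds were 2.86 (1.56 to 5.53) and 1.27 (0.616 to 2.66), so that, like IFI44, it was set apart from the parent in subclone 1 and not in subclone 2.

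IFI35 was 11.0 RPKM (62 reads, 8.40 to 14.1), 17.9 (104 reads, 14.6 to 21.7) and 15.6 (93 reads, 12.6 to 19.1), with folds of 1.63 (1.18 to 2.27) and 1.42 (1.02 to 2.0). IFI6, an antiapoptotic mitochondrial protein, had 15, 19 and 12 reads and folds of 1.23 (0.594 to 2.61) and 0.760 (0.325 to 1.74). IFI44L, the neighbour of IFI44 on chromosome 1, had 2, 8 and 5 reads. RSAD2, the antiviral enzyme viperin, and CMPK2, a mitochondrial nucleotide kinase beside it on chromosome 2, had 1, 0 and 0 reads and 2, 0 and 1 reads. For RSAD2, 0 reads allow up to 0.371 RPKM in subclone 1 and 0.362 in subclone 2, and for CMPK2 up to 0.216 in subclone 1. Several genes that interferon induces strongly in other cells, among them RSAD2, MX2, IFITM1 and HERC5, were therefore at or under 2 reads in all 3 lines.

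Between the subclones, which share no parental value in their ratio, members differed in both directions. Subclone 2 was at least 2-fold higher than subclone 1 for 3 of the 33 genes, ISG20, OASL and USP18, beside 1.42% of all genes, and at least 2-fold lower for IFI27 and IFI44, beside 1.39%. USP18 and IFI44 had passed the limit on level only through the subclone in which they are higher. The interval lay above 1 for 7 genes, IRF1, ISG20, OAS2, OAS3, OASL, SAMD9 and GBP2, beside 11.6% of all genes, and below 1 for 3, STAT2, IFI27 and IFI44, beside 8.46%. The median log2 ratio was 0.08, against 0.03 for all genes. ISG20 was 2.60-fold higher in subclone 2 (1.30 to 5.55), OASL 2.13-fold (1.39 to 3.32), GBP2 1.63-fold (1.37 to 1.94), SAMD9 1.30-fold (1.18 to 1.44) and IRF1 1.28-fold (1.03 to 1.60). In the other direction IFI27 stood at 0.443 (0.248 to 0.768) of subclone 1, IFI44 at 0.308 (0.101 to 0.802) and STAT2 at 0.772 (0.634 to 0.940). USP18 was 2.32-fold higher with an interval of 0.969 to 6.12, and IRF9 was 0.642 of subclone 1 with one of 0.380 to 1.07. XAF1, high in both subclones, did not differ between them beyond counting error, at 0.771 (0.519 to 1.14). OAS2 and OAS3 differed by 1.24-fold (1.01 to 1.51) and 1.11-fold (1.02 to 1.20), with lower bounds close to 1. Division by ACTB shifts every log2 ratio of this comparison by 0.13, which raises the 0.15 of OAS3. Centring on the median or division by the upper quartile shifts every ratio by -0.03.

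**Figure D4:**
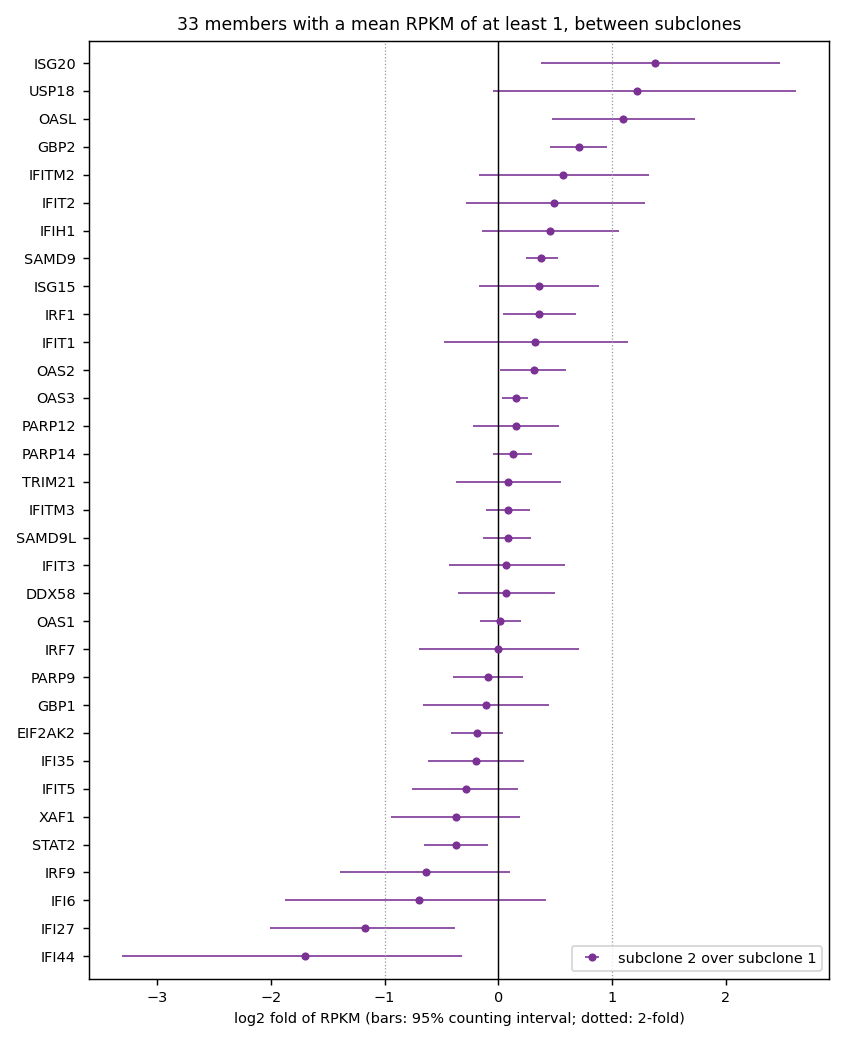
Log2 fold of RPKM in subclone 2 over subclone 1 (x axis) for the 33 interferon-stimulated genes over the limit (mean RPKM of 1), with 95% counting intervals as bars and dotted lines at 2-fold. ISG20, USP18 and OASL lie at the top beyond 2-fold, IFI27 and IFI44 at the bottom, and most other bars cross 0.

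The genes upstream of this response were taken from lists of ligands, receptors, kinases, sensing proteins and inhibitors. Of the ligands IFNE was measured, with 1, 1 and 2 reads, and the other ligand genes were not analysed here. All 6 receptor chains measured were expressed, and none was 2-fold different, although the interval lay above 1 for 4 of 6 in subclone 1 and 5 of 6 in subclone 2, beside 20.0% and 22.9% of all genes. IFNGR1, the ligand-binding chain of the type II receptor, was 90.2 RPKM in the parent, against 147 in subclone 1 and 147 in subclone 2, or 1.63-fold (1.5 to 1.78) in each. Its partner IFNGR2 was 44.5, 54.7 and 61.0 RPKM. IFNAR2, of the type I receptor, was 13.4, 17.4 and 24.1 RPKM with folds of 1.30 (1.07 to 1.60) and 1.80 (1.49 to 2.18). The other chain, IFNAR1, was 11.5, 11.8 and 13.9 RPKM with folds of 1.03 (0.880 to 1.21) and 1.21 (1.04 to 1.41). For the type III receptor, IL10RB was 21.3, 38.1 and 26.1 RPKM, with folds of 1.79 (1.49 to 2.15) and 1.23 (1.01 to 1.5), and IL28RA was 1.51, 2.23 and 2.04 RPKM with both intervals holding 1.

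Of the receptor kinases, JAK1 was 55.8, 70.1 and 68.8 RPKM, with folds of 1.26 (1.17 to 1.35) and 1.23 (1.15 to 1.33). TYK2 was 9.77, 10.2 and 11.4 RPKM and JAK2 1.39, 1.03 and 1.20 RPKM, with all intervals against the parent holding 1. Among 9 sensing and adaptor genes over the limit, 1 had an interval above 1 and 2 below in subclone 1, and 2 above and 2 below in subclone 2. These are close to the shares of all genes, 20.0% above and 19.0% below in subclone 1 and 22.9% and 17.9% in subclone 2. MAVS, the adaptor of RIG-I and MDA5, was 1.28-fold (1.16 to 1.41) above the parent in each subclone, whereas MYD88, the adaptor of most Toll-like receptors, stood at 0.540 (0.456 to 0.637) and 0.821 (0.710 to 0.950). The counts also include TRIM25, at 0.787 (0.696 to 0.889) of the parent in subclone 1. In subclone 2 they include IKBKE at 1.73 (1.26 to 2.40) and IFI16 at 0.868 (0.785 to 0.959). TLR3, the endosomal receptor for double-stranded RNA, had 1, 12 and 11 reads and ratios of 11.7 (1.73 to 500) and 10.4 (1.52 to 450). Of 6 inhibitors over the limit, 2 lay above and 2 below in subclone 1, and 1 above and 2 below in subclone 2, numbers too small to set apart from the same shares. SOCS3, which blocks receptor kinases, was 1.87-fold (1.23 to 2.88) and 1.56-fold (1.01 to 2.43) higher, and PTPN2, a phosphatase acting on JAK and STAT proteins, was at 0.766 (0.642 to 0.914) and 0.604 (0.50 to 0.729).

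**Figure D5:**
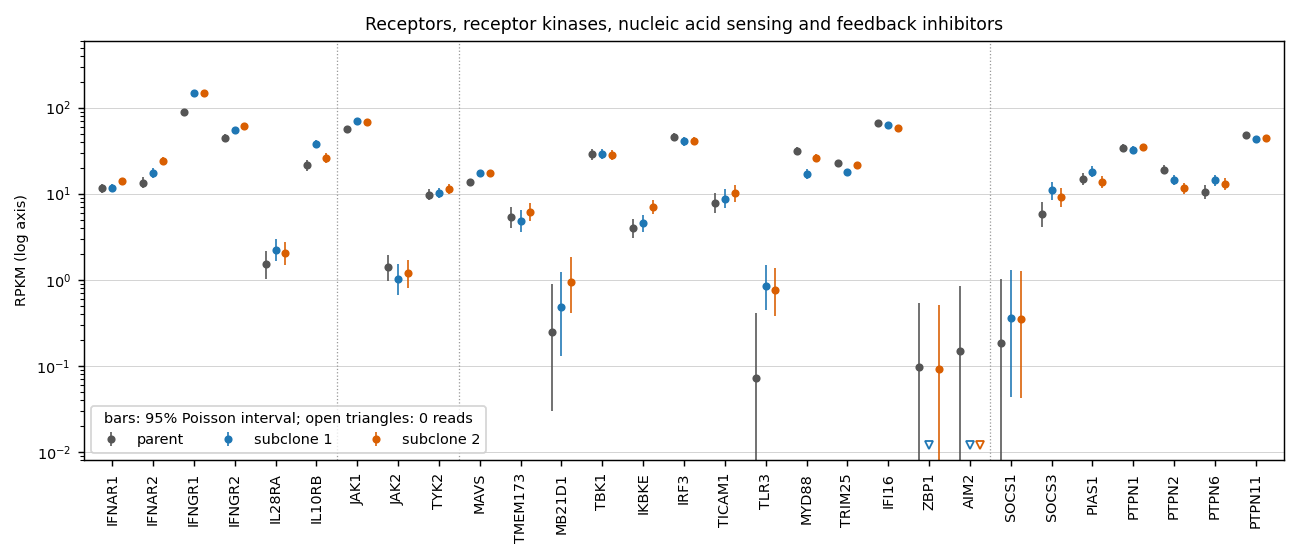
RPKM (log axis) of interferon receptors, receptor kinases, nucleic acid sensing genes and feedback inhibitors in the parent, subclone 1 and subclone 2, with 95% exact Poisson intervals as bars and open triangles for 0 reads. Receptors such as IFNGR1 (90.2, 147 and 147 RPKM) lie higher in the subclones, while MYD88 (31.3, 16.9 and 25.7 RPKM) lies lower.

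Markers of liver and of other cell types also differed between the libraries. The 6 hepatocyte markers summed to 5.48, 55.9 and 78.2 RPKM, to which ALB gave 2.46, 49.5 and 68.8 RPKM, with TTR listed at 0 in the parent and subclone 1. APOB, the main apolipoprotein of very low density lipoprotein, was 0.30, 1.23 and 4.17 RPKM, or 4.10-fold (2.46 to 7.16) and 13.9-fold (8.73 to 23.4) over the parent. All 4 leukocyte markers measured summed to 76.6, 114 and 101 RPKM through CD68 at 75.3, 112 and 99.6 RPKM, while PTPRC, which defines leukocytes, had 1, 0 and 0 reads. LYZ had 7, 7 and 10 reads, with all intervals holding 1. CD14 had 1, 8 and 0 reads, a ratio of 7.79 (1.04 to 346) in subclone 1. Between the subclones its interval ran from 0 to 0.572. The 4 fibroblast markers summed to 11.3, 28.9 and 23.8 RPKM, and their members differed in direction. LUM, an extracellular proteoglycan, had 48, 117 and 105 reads with folds of 2.37 (1.68 to 3.39) and 2.08 (1.46 to 2.99), and DCN, a related one, was 0.773, 4.42 and 2.75 RPKM with folds of 5.72 (2.68 to 14.0) and 3.56 (1.60 to 8.99). The collagen genes were near 0, COL1A1 at 9, 11 and 1 reads, in subclone 2 a ratio of 0.106 (0.00241 to 0.762), and COL1A2 at 1, 1 and 0 reads. For the 4 endothelial markers the sums were 4.74, 11.8 and 7.56 RPKM, with VWF at 2, 1 and 1 reads and CDH5 at 0, 1 and 0 reads. Of these, the adhesion molecule PECAM1 was 3.33, 9.81 and 4.46 RPKM with folds of 2.95 (1.98 to 4.48) and 1.34 (0.847 to 2.15), and KDR, a receptor for vascular endothelial growth factor, was 1.36, 1.93 and 3.08 RPKM with folds of 1.42 (0.918 to 2.22) and 2.26 (1.52 to 3.41). The part of these differences in the members' ratios was not tested, and in RNA from whole cultures fewer cells with a transcript and less of it per cell cannot be told apart. ACTB was 3189, 3496 and 3205 RPKM and GAPDH 4554, 4729 and 4359 RPKM. Division by ACTB shifted every log2 ratio between subclone 1 and the parent by -0.13, the median of all genes included, and cut the share of higher calls among all genes 2-fold changed from 72.9% to 57.8%. For subclone 2 over subclone 1 it moved that share from 50.5% to 64.0%, and GAPDH moved it to 62.6%.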

How the data were processed

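Libraries of cultured cells were made by the authors from Trizol RNA with an Illumina TruSeq kit. Values deposited by the authors were RPKM per gene, with 6 decimals and only for genes above 0, and genes without a row counted as 0. The submitters' processing notes name hg19. The aligner, counter, annotation, strand setting and treatment of reads shared by several genes are not given in the sources used here.

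Groups came from the labels. The members, gene lists and call rules were chosen with earlier results of these data known. Ratios were log2((RPKM + 0.1)/(RPKM + 0.1)), with limits of 1 for the mean RPKM and of 2-fold. No test was possible with 1 library per line, so no p-value was computed, and a self-test on simulated data recovered the totals.

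Whole reads were recovered from the RPKM, because a gene's values are whole multiples of what 1 read is worth. Of the 11370 genes over the limit, 98.0% could be given whole reads. The totals used put 80.5% of 2000 genes within 10% of the length of a reference transcript, against 14.8% with the totals halved and 56.1% with them doubled. Of the 44 members, 37 matched a transcript length within 10%. STAT2, EIF2AK2, GBP2 and IFITM2 matched none, also when the length was doubled. Their whole reads and intervals are therefore less certain, while their ratios of RPKM are not affected. A count of 0 allows up to 3 reads. The rule that a counting interval excludes 1 was added after the values were seen.

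Full values are given for every member that was at least 2-fold different in any comparison and for the 10 with the highest mean RPKM, for receptors, kinases, listed ligands, and genes of other lists at least 2-fold different. The other members are named so that all are accounted for. MAVS, MYD88, TRIM25, IKBKE, IFI16, TLR3, SOCS3, PTPN2, MX1, HERC6, AFP, APOA1, SERPINA1, CD68, LYZ and CD14 were described after their values were seen. The same holds, below, for B2M, TAP1, UBE2L6, UBA7, PNPT1, NMI and LY6E.

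Promoters came from the RefSeq table of GRCh38.p14, and windows of 50 bases shared between genes from GENCODE transcripts of GRCh38. Alternatives were pseudocounts of 0.01 and 1, a mean RPKM limit of 5 or none, 1.5-fold, ratios centred on the median, and division by the upper quartile, ACTB or GAPDH. Python 3.11.15, numpy 2.4.6, pandas 2.3.3, scipy 1.17.1 and matplotlib 3.10.9 were used.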

Additional observations from a re-analysis of the deposited data

How the results depend on the processing

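With 1 library per line none could be left out, and no biological spread could be set beside any fold. No paired analysis was possible because each group has 1 library. The median log2 ratio of the members kept its sign and ran from 0.25 (ACTB) to 0.40 for subclone 1 over the parent, from 0.39 to 0.57 for subclone 2, and between the subclones from 0.05 (centred or upper quartile) to 0.20 (GAPDH) and 0.21 (ACTB). Counts of intervals above 1, recomputed under the 4 rescalings only, ran from 12 to 16, 13 to 19 and 5 to 10. For subclone 1 over the parent, the 5 genes at least 2-fold higher became 3 with a pseudocount of 1, 10 without a filter, 1 with a mean RPKM of at least 5 and 12 at 1.5-fold. None was 2-fold lower, and 2 were without a filter, while intervals below 1 went from 2 to 4 after division by ACTB. For subclone 2 over the parent, 6 became 10 without a filter, 2 with a mean RPKM of at least 5 and 14 at 1.5-fold. Genes 2-fold lower went from 0 to 1 without a filter, and intervals below 1 from 2 to 1 after division by GAPDH. For subclone 2 over subclone 1, the 3 genes 2-fold higher became 1 with a pseudocount of 1 or a mean RPKM of at least 5. The 2 genes 2-fold lower became 1 under those settings and 4 without a filter or at 1.5-fold. A looser filter or fold admits more genes by construction, and the cause of the shifts under ACTB and GAPDH is the 0.13 and 0.12 log2 units, at most, by which these genes differ between libraries. Of 753 ratios of single members under alternatives, 751 stayed within their counting interval, 2 moved beyond it under division by ACTB, and 0 reversed. Only a ratio whose interval excluded 1 could count as reversed, and some ratios near 0 changed sign within their interval. ISG15 in subclone 1 over the parent, for example, went from 0.02 to -0.12 after division by ACTB.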

Other observations

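A further list of interferon-stimulated genes outside the 44 was measured, of which 32 of 38 passed the limit of a mean RPKM of 1. In subclone 1, 3 of the 32 were at least 2-fold above the parent and 0 below, with a median log2 ratio of 0.29, beside 4.90% and 1.82% of all genes and a median of 0.00. In subclone 2, 2 were above and 0 below, with a median of 0.43, beside 5.33% and 2.16% of all genes and a median of 0.04. Counting intervals lay above 1 for 14 and below 1 for 1 in subclone 1, where 20.0% of all genes lay above and 19.0% below. In subclone 2 they lay above 1 for 17 and below 1 for 5, where the shares of all genes were 22.9% and 17.9%. The genes over 2-fold were APOL1, a trypanosome-killing lipoprotein component, at 51.5, 121 and 92.6 RPKM in the parent, subclone 1 and subclone 2, GBP3, a guanylate-binding GTPase, at 11.5, 24.6 and 34.1 RPKM, and LGALS9, a secreted galectin, at 4.25, 10.3 and 10.1 RPKM. APOL1 was 2.35-fold (2.16 to 2.57) above the parent in subclone 1 and 1.80-fold (1.64 to 1.97) in subclone 2. GBP3 was 2.13-fold (1.76 to 2.59) and 2.95-fold (2.46 to 3.55) above it, a higher value in subclone 2, as for GBP2.

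Further values of this list were chosen after they were seen. B2M, the light chain of class I molecules, was 479 RPKM in the parent, against 759 in subclone 1 and 856 in subclone 2, or 1.59-fold (1.5 to 1.68) and 1.79-fold (1.70 to 1.89). TAP1, a subunit of the peptide transporter, was 4.42, 5.91 and 8.54 RPKM, with folds of 1.34 (0.944 to 1.90) and 1.93 (1.40 to 2.69). Of the enzymes that attach ISG15, UBE2L6 was 16.0, 28.1 and 24.5 RPKM with folds of 1.76 (1.40 to 2.22) and 1.53 (1.21 to 1.94), and UBA7 was 2.21, 3.06 and 4.19 RPKM with folds of 1.39 (0.870 to 2.23) and 1.90 (1.23 to 2.98). In the opposite direction PNPT1, a mitochondrial exonuclease, stood at 0.594 (0.507 to 0.695) and 0.555 (0.473 to 0.651) of the parent. NMI and LY6E were at 0.587 (0.427 to 0.802) and 0.540 (0.330 to 0.869) of the parent in subclone 2.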
